A study of Gallus gallus with 17 samples.

Results

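Chaperones of the endoplasmic reticulum (ER) were examined in adipose tissue of 3 chicken lines. The members are CANX, HSPA5, HSP90B1, PDIA3, PDIA4 and DNAJC3, and they were taken as every probe set whose annotated gene symbol is one of these 6. Each probe set reads a transcript, or for some probe sets more than 1, through several short probes. That rule gave 6 of the 13008 genes named on the array and 13 of its 37693 chicken probe sets, 2 for CANX, 1 for HSPA5, 2 for HSP90B1, 3 for PDIA3, 2 for PDIA4 and 3 for DNAJC3. Probe sets of a gene are told apart by the end of their array identifier, such as S1_at or S1_s_at, and the plots give the whole identifier. CANX was chosen because 1 of its probe sets was far lower in Fayoumi than in both other lines, so the values of the chaperones in both Fayoumi comparisons are given below as a description, with no test. The comparison between Leghorn and broiler was not used in the choice.

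The study compared a broiler line, bred for meat, with 2 leaner lines and asked which pathways go with leanness. The broiler group holds 6 arrays, the Fayoumi group, from the line M 5.1, holds 5 and the Leghorn group, from the line GHs 13, holds 6. All birds were males at 3 weeks of age, the labels name no treatment, and each array carries total RNA of adipose tissue from 1 sample. The labels call the arrays biological replicates and name neither the fat depot nor the birds behind each sample, so a p-value here speaks of the spread among these samples alone, and the small number of arrays sets how precise it can be.

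The ER folds proteins that will be secreted or sit in membranes. HSPA5, also called BiP, is the Hsp70 of the ER and holds unfolded chains, and HSP90B1, also called GRP94, is the Hsp90 of the ER and finishes a narrower set of clients. CANX, or calnexin, is a membrane-bound lectin that keeps newly made glycoproteins in the ER until they fold, and PDIA3, or ERp57, is the disulfide isomerase that works on the glycoproteins calnexin holds. PDIA4, or ERp72, is a further disulfide isomerase, and DNAJC3, known in mammals as p58IPK, is a J-domain helper of HSPA5. When unfolded chains build up, the unfolded protein response raises many of these genes together. Adipocytes rely on this machinery to secrete adipokines and lipoprotein lipase.

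Values are log2 expression as normalized by the authors, and background lay at 2.29 on that scale. All 9 adipocyte markers were above background in each line, and their summed level was 17.30 to 17.66 in broiler, 17.42 to 17.58 in Fayoumi and 16.98 to 17.63 in Leghorn (log2 of the summed linear values). Such a sum mainly follows its brightest markers. Taken singly, all 9 were lower in Leghorn than in broiler, with a median difference of -0.30. In Fayoumi 5 were higher and 4 lower than in broiler, with a median of 0.01. None was called by limma at an adjusted p under 0.05 in either comparison of the 17 arrays. Adipose tissue is a mixture of cells, and on bulk arrays fewer cells of a type and less RNA per cell cannot be told apart. The arrays labelled broiler 1 and Leghorn 2 went against their labels. On a scale from broiler, at 0, to Leghorn, at 1, built with the chaperones left out from 91 probe sets that were higher in broiler and 69 that were higher in Leghorn, broiler 1 lay at 1.01 and Leghorn 2 at 0.0807. The other broiler arrays lay between -0.00143 and 0.117 and the other Leghorn arrays between 0.856 and 1.005. The scale was built from the broiler and Leghorn arrays other than these 2, with each array left out when it was placed itself. Results are given for the arrays as labelled and, where they rest on these 2 arrays, without them. The 2 were picked out by their expression, so every p-value without them depends on that choice. Between Leghorn and broiler limma called 661 of 37693 chicken probe sets without them and 0 as labelled. Of the adipocyte markers limma called 1 without them, ADIPOQ, with a Fayoumi minus broiler difference of -1.29 (adjusted p = 0.0274). As labelled the ADIPOQ difference was -1.14, with no overlap between these lines (limma adjusted p = 0.0770). A further 5 arrays, broiler 2, 3 and 4 and Leghorn 3 and 6, stood apart on the first principal component, which carried 53.0% of the variance.

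CANX was far lower in Fayoumi than in both other lines at 1 of its 2 probe sets and not at the other. The probe set S1_at had its lowest broiler value at 9.33, its median at 10.19 and its highest at 11.27. In Leghorn the lowest value was 9.99, the median 10.61 and the highest 11.02. The 5 Fayoumi arrays stood at 4.30, 4.01, 3.54, 2.87 and 5.16. All 5 were above background and below every array of the other lines. The means were 10.17 ± 0.71 in broiler (SD, n = 6), 3.98 ± 0.86 in Fayoumi (SD, n = 5) and 10.60 ± 0.40 in Leghorn (SD, n = 6). Fayoumi lay at a difference of -6.20 from broiler (SE 0.40) and -6.63 from Leghorn (SE 0.40). Leghorn and broiler overlapped and differed by 0.43 (SE 0.38, limma adjusted p = 0.852).

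The second CANX probe set, S1_s_at, did not share that drop. The Fayoumi arrays stood at 11.47, 11.43, 11.52, 11.35 and 11.71, at the upper end of all arrays. Broiler ran from 9.86 through a median of 10.99 to 11.68, and Leghorn from 9.79 through a median of 10.99 to 11.36. The Fayoumi mean was 11.50 ± 0.14, which was 0.71 above broiler (SE 0.34) and 0.65 above Leghorn (SE 0.34). Leghorn differed from broiler by 0.05 (SE 0.32, limma adjusted p = 1). In the manufacturer's naming, the suffix _s_at marks a probe set whose probes match more than 1 transcript of the design, and which transcripts those are was not examined here.

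**Figure D1:**
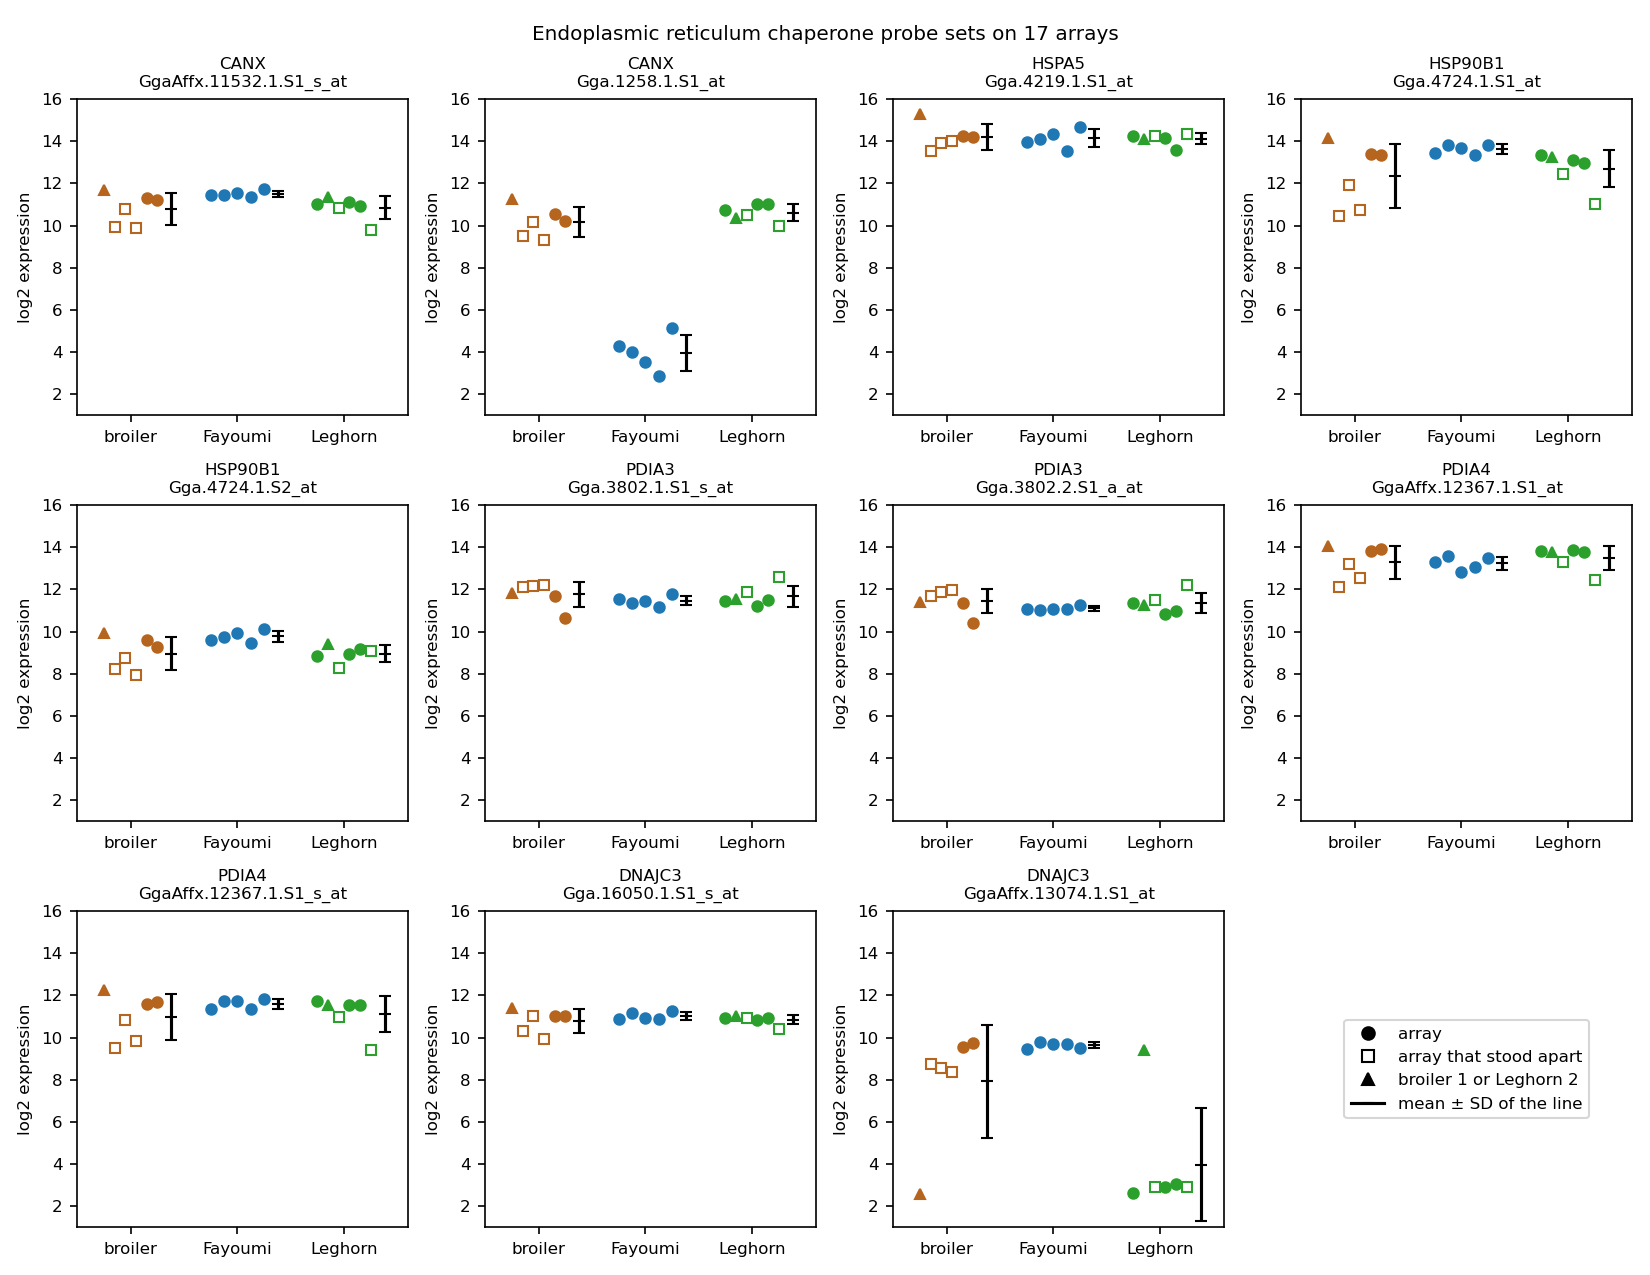
Log2 expression of the 11 chaperone probe sets above background on the 17 arrays, 1 panel a probe set, with the arrays of broiler, Fayoumi and Leghorn in order of their replicate number and black bars for the mean ± SD of the line. Open squares are the 5 arrays that stood apart and triangles are broiler 1 and Leghorn 2. CANX S1_at lies between 2.87 and 5.16 in Fayoumi and DNAJC3 S1_at lies between 2.61 and 3.04 on 5 of 6 Leghorn arrays.

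DNAJC3 also had 1 probe set with a wide gap, between other groups of arrays. Its measured S1_at probe set stood at 9.45, 9.78, 9.71, 9.70 and 9.51 in Fayoumi. In broiler it was 2.58 on broiler 1 and 8.35 to 9.72 on the other 5 arrays. In Leghorn it was 9.42 on Leghorn 2 and 2.61 to 3.04 on the other 5, of which Leghorn 3, 4 and 6 share the value 2.93. The 2 arrays that break the pattern of their line are those that lay with the other line over the probe sets that part broiler from Leghorn. As labelled, Leghorn was 3.94 below broiler on the log2 scale, and limma did not call it (SE 1.29, adjusted p = 0.852). Without broiler 1 and Leghorn 2 the means were 8.98 ± 0.62 in broiler (SD, n = 5) and 2.89 ± 0.16 in Leghorn (SD, n = 5), and DNAJC3 fell by 6.10 (SE 0.24, limma adjusted p = 3.63e-08). That p depends on leaving out 2 arrays that were picked by their expression. No fold is given, since 3 Leghorn arrays share 1 value near the lower end of the scale.

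The S1_s_at probe set of DNAJC3 showed no such gap. It ran from 9.92 through a median of 11.01 to 11.41 in broiler and from 10.41 through a median of 10.94 to 11.005 in Leghorn. In Fayoumi it stood at 10.88, 11.17, 10.93, 10.89 and 11.25. Leghorn and broiler overlapped, with a difference of 0.06 (SE 0.21, limma adjusted p = 1). The third probe set of DNAJC3, which also ends in S1_at, reached at most 2.27 and was not above background on any array, and the same held for A1_at of PDIA3, at most 2.28. Below, S1_at of DNAJC3 always means the measured one. Of the 13 probe sets, 11 thus carried a measurable level, and all 11 were above background on all 17 arrays.

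HSPA5, with a single probe set, overlapped between all 3 lines. It ran from 13.51 through a median of 14.09 to 15.29 in broiler and from 13.59 through a median of 14.19 to 14.35 in Leghorn. The Fayoumi arrays stood at 13.97, 14.12, 14.36, 13.54 and 14.68. The highest value, 15.29, was on broiler 1, which is 1 of the 2 arrays that lay with the other line. Leghorn and broiler differed by -0.07 (SE 0.26, limma adjusted p = 1), and by 0.15 without broiler 1 and Leghorn 2. Fayoumi differed from broiler by -0.05 (SE 0.27) and from Leghorn by 0.02 (SE 0.27).

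HSP90B1 had the widest spread within lines among the chaperones without a line-wide gap. S1_at ran from 10.47 through a median of 12.63 to 14.16 in broiler and from 11.03 through a median of 13.05 to 13.33 in Leghorn. The Fayoumi arrays were close together at 13.42, 13.80, 13.69, 13.34 and 13.84. The Fayoumi mean lay 1.28 above broiler (SE 0.63) and 0.93 above Leghorn (SE 0.63), and every Fayoumi array was above every Leghorn array while broiler 1 was above them all. S2_at stood at 9.58, 9.75, 9.93, 9.44 and 10.14 in Fayoumi, against 7.92 to 9.93 in broiler and 8.26 to 9.42 in Leghorn. Its differences were 0.82 from broiler (SE 0.33) and 0.81 from Leghorn (SE 0.33). Between Leghorn and broiler neither was called, with differences of 0.35 (SE 0.60) and 0.01 (SE 0.31), both at a limma adjusted p of 1.

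The disulfide isomerases overlapped between broiler and Leghorn at all of their measured probe sets. PDIA4 S1_at ran from 12.11 to 14.06 in broiler and from 12.44 to 13.84 in Leghorn, and its Fayoumi arrays stood at 13.28, 13.56, 12.83, 13.05 and 13.48. Its partner S1_s_at ran from 9.51 to 12.26 and from 9.41 to 11.71, with Fayoumi at 11.35, 11.73, 11.72, 11.33 and 11.81. Fayoumi differed from broiler by -0.03 (SE 0.36) at the first and by 0.63 (SE 0.50) at the second. PDIA3 showed narrow Fayoumi ranges, 11.17 to 11.77 at S1_s_at and 11.03 to 11.27 at S1_a_at. Broiler ran from 10.63 to 12.20 at S1_s_at and Leghorn from 11.19 to 12.59. Both PDIA3 probe sets were lower in Fayoumi than in broiler, by differences of -0.30 (SE 0.29) and -0.36 (SE 0.27), which are about the size of their errors.

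Much of the spread within broiler and Leghorn followed the 5 arrays that stood apart. HSP90B1 S1_at was 10.47 to 12.42 on broiler 2, 3 and 4 and Leghorn 3 and 6, against 12.97 to 14.16 on the other 12 arrays. PDIA4 S1_s_at was 9.41 to 10.95 against 11.33 to 12.26, and CANX S1_s_at was 9.79 to 10.82 against 10.95 to 11.71. These 3 were lower on the 5 arrays with no overlap. PDIA3 ran the other way, with 11.86 to 12.59 against 10.63 to 11.80 at S1_s_at and 11.50 to 12.20 against 10.42 to 11.38 at S1_a_at. HSPA5 overlapped, at 13.51 to 14.35 against 13.54 to 15.29. So did HSP90B1 S2_at and DNAJC3 S1_s_at. PDIA4 S1_at overlapped with Fayoumi arrays alone. It was 12.11 to 13.28 on the 5 arrays, 13.76 to 14.06 on the other 7 arrays of broiler and Leghorn and 12.83 to 13.56 in Fayoumi.

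Over all chicken probe sets, 4718 of 37693 (12.5%) showed no overlap between these 5 arrays and the other 12, and among the chaperones it was 5 of 13 (38.5%). Of the 37693, 21177 were above background on at least 5 arrays, against 11 of the 13, so these shares are not like for like. Both measured probe sets of PDIA3 are among the 5 chaperone probe sets. The 5 arrays were picked out from the expression values, so no test is given. For ACTB, the level at the 3' end minus that at the 5' end, which grows as RNA degrades or labelling shortens, was 1.49 to 1.92 on them and 1.91 to 2.70 on the others. The summed level of the 9 adipocyte markers was 17.16 to 17.43 (median 17.32) against 16.98 to 17.66 (median 17.57). The 16.98 was on Leghorn 1, where the skeletal muscle markers summed to 17.65, and the next lowest of the 12 was 17.42, on Fayoumi 1. The sum of the 8 macrophage markers, all above background in both sets, was 15.60 to 16.04 (median 15.89) against 15.22 to 15.85 (median 15.67). The part of RNA integrity and of cell make-up in the chaperone values was not tested. Leaving out the 5 arrays kept 3 broiler arrays, and 1 of them is broiler 1, which lay with the other line. No fit left out broiler 1 as well, so its part in the shifts that follow was not tested. Without the 5 arrays the Fayoumi minus broiler difference went from 1.28 to -0.02 at HSP90B1 S1_at, from 0.82 to 0.18 at HSP90B1 S2_at and from 0.71 to 0.10 at CANX S1_s_at. The sign also turned at PDIA4 S1_s_at, from 0.63 to -0.25, at DNAJC3 S1_s_at, from 0.24 to -0.13, and at PDIA3, from -0.30 to 0.10 at S1_s_at and from -0.36 to 0.05 at S1_a_at. PDIA4 S1_at went from -0.03 to -0.68 and HSPA5 from -0.05 to -0.44. At CANX S1_at the difference went from -6.20 to -6.70. Against Leghorn, with 4 Leghorn arrays left and Leghorn 2 among them, more of the difference stayed at some probe sets. It went from 0.93 to 0.45 at HSP90B1 S1_at, from 0.81 to 0.67 at HSP90B1 S2_at and from 0.65 to 0.38 at CANX S1_s_at. At PDIA4 S1_s_at it went from 0.48 to 0.01, and at PDIA3 S1_s_at from -0.22 to 0.05.

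**Figure D2:**
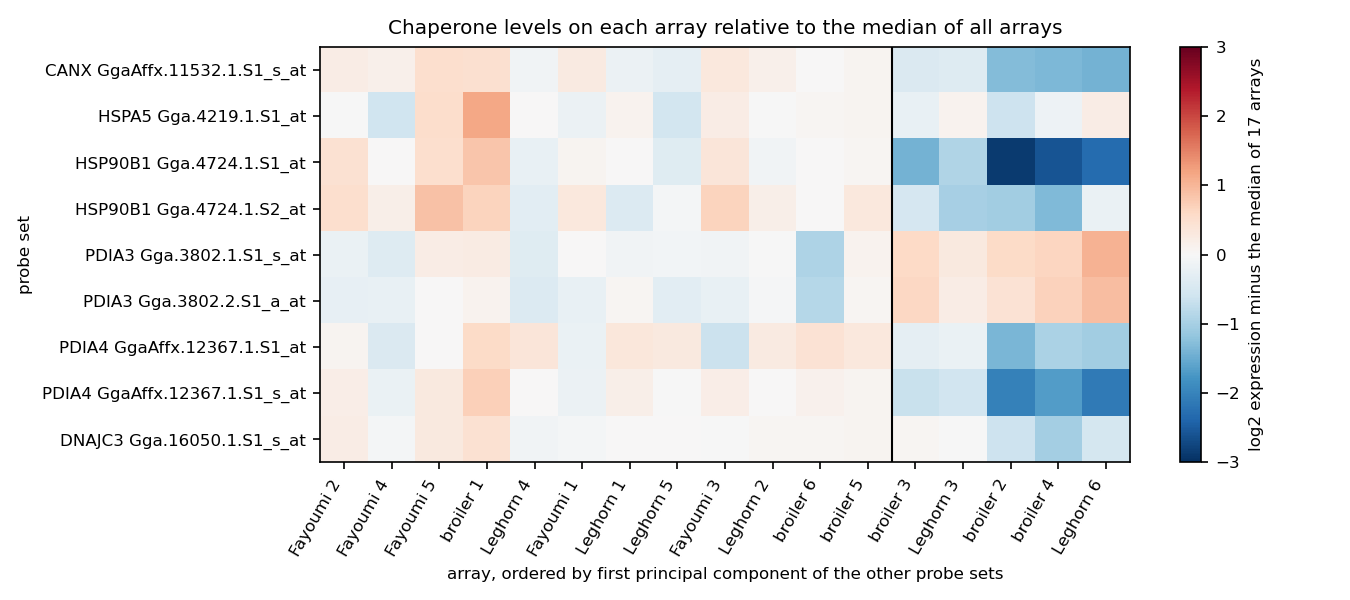
Each chaperone probe set's log2 expression minus its median over the 17 arrays, as colour, with the arrays ordered by the first principal component of the other probe sets. The black line parts the 12 arrays on the left from the 5 that stood apart, where HSP90B1 S1_at, PDIA4 S1_s_at and CANX S1_s_at are lower and PDIA3 is higher. CANX S1_at and DNAJC3 S1_at are not drawn because their wide gaps would exceed the colour scale.

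Broiler 1 carried the highest value of 6 of the 11 measured chaperone probe sets. They were CANX S1_at at 11.27, HSPA5 at 15.29, HSP90B1 S1_at at 14.16, both probe sets of PDIA4 at 14.06 and 12.26, and DNAJC3 S1_s_at at 11.41. Broiler 1 also carried the lowest value of DNAJC3 S1_at, 2.58. Over the 136 measured genes of the pathway lists given below, the highest value lay on broiler 1 for 15 (11%, against 5.0% of 21177 measured chicken probe sets). Leghorn 6 and Leghorn 1 held more. Leghorn 6 held 36 (26.5%, against 15.5% of all), Leghorn 1 held 16 (11.8% against 7.77%), and broiler 2 and Leghorn 3 held 13 each (9.56%, against 10.4% and 5.61%). The 15 on broiler 1 were spread over the lists, with 5 of 29 cytosolic and mitochondrial chaperones, 3 of 19 helpers of HSPA5 and other ER chaperones and 0 of 16 genes of N-glycosylation.

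Counted over the fit, few chaperone probe sets passed the threshold of an adjusted p under 0.05. In Fayoumi minus broiler 1 of 13 was called, CANX S1_at, beside 0.714% of all chicken probe sets. In Fayoumi minus Leghorn 1 of 13 was called, the same probe set, beside 0.626%. The choice of CANX rests on these comparisons, so nothing is read from either count. In Leghorn minus broiler 0 of 13 were called by limma, beside 0% of all probe sets, with 1 of 13 at an unadjusted p under 0.05 and a lowest adjusted p of 0.852. Without broiler 1 and Leghorn 2 it was 1 of 13, DNAJC3 S1_at, beside 1.75%. In the Fayoumi comparisons without these arrays the counts were 1 of 13 against broiler, beside 1.82%, and 2 of 13 against Leghorn, CANX S1_at and DNAJC3 S1_at, beside 1.44%.

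The lines did not overlap at 1 of 13 chaperone probe sets in Fayoumi against broiler, beside 3.05% of all, and at 4 of 13 in Fayoumi against Leghorn, beside 2.57%. Both counts include CANX S1_at, on which the choice rests, so nothing is read from them. The others against Leghorn were HSP90B1 S1_at and S2_at and DNAJC3 S1_at. Those of HSP90B1 parted narrowly, with lowest Fayoumi values of 13.345 and 9.438 and highest Leghorn values of 13.335 and 9.4195. At DNAJC3 S1_at the lowest Fayoumi value was 9.446 and the highest Leghorn value 9.423, on Leghorn 2. The other 5 Leghorn arrays lay far lower, at 2.61 to 3.04. Its Fayoumi minus Leghorn difference was 5.65 (SE 1.35) as labelled and 6.74 (SE 0.24) without broiler 1 and Leghorn 2, a description. Between Leghorn and broiler it was 0 of 13, beside 0.0186%. Of the 11 measured probe sets, 6 were higher and 5 lower in Fayoumi than in broiler, with a median difference of 0.24. Against Leghorn 7 were higher and 4 lower, with a median of 0.17, and these comparisons share the Fayoumi arrays. In Leghorn against broiler 7 were higher and 4 lower, with a median of 0.05.

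**Figure D3:**
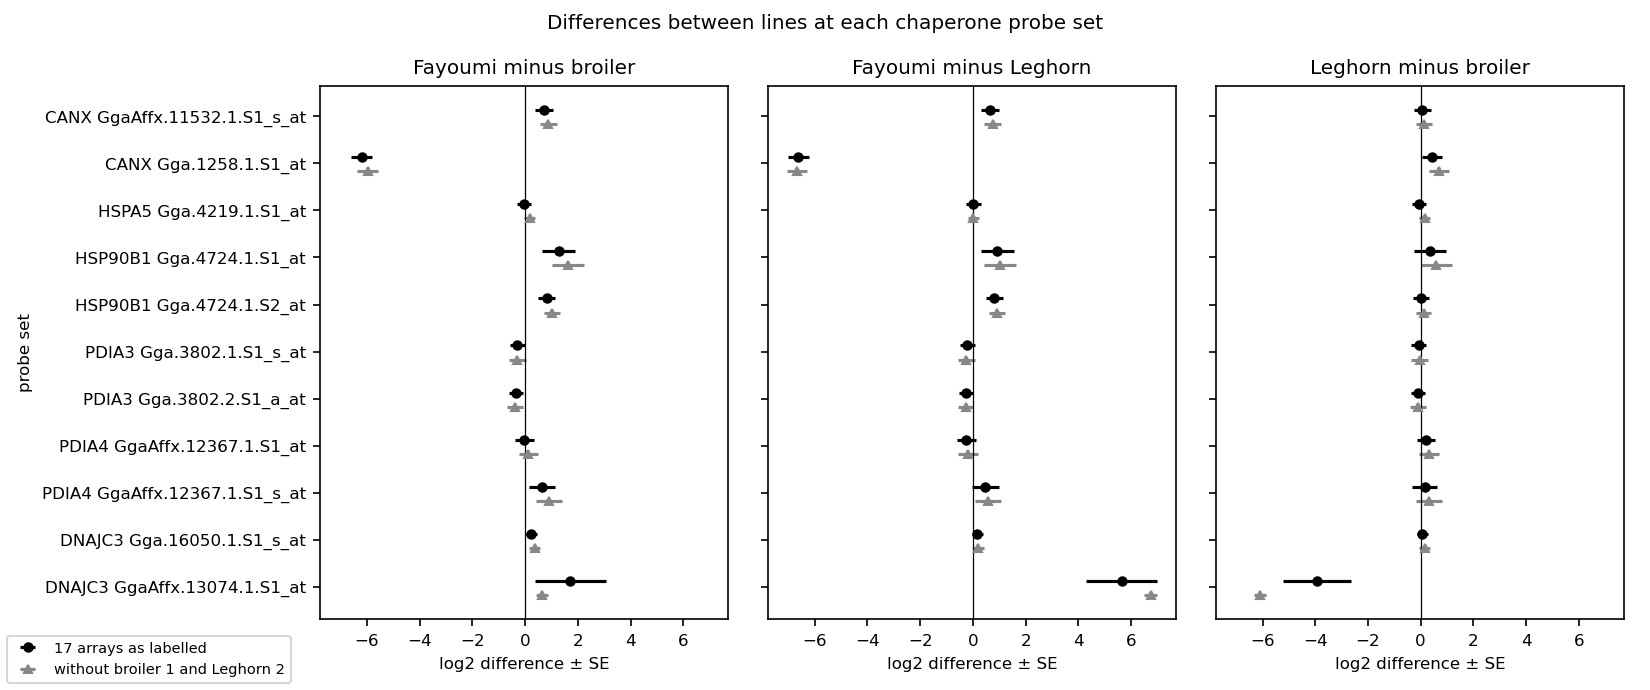
Log2 difference ± SE of each measured chaperone probe set between lines, 1 panel a comparison, for the 17 arrays as labelled (black circles) and without broiler 1 and Leghorn 2 (grey triangles). CANX S1_at stands at -6.20 and -6.63 in the Fayoumi comparisons and near 0 in Leghorn minus broiler. DNAJC3 S1_at moves from -3.94 to -6.10 in Leghorn minus broiler, and the other probe sets lie within 1.64 of 0.

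The difference between both CANX probe sets on the same array, S1_at minus S1_s_at, takes out what both share on that array. In Fayoumi it was -7.17, -7.42, -7.98, -8.48 and -6.55. In broiler it ran from -0.99 to -0.40, and in Leghorn from -1.002 on Leghorn 2 to 0.20. The means were -7.52 ± 0.74 in Fayoumi (SD, n = 5), -0.62 ± 0.23 in broiler (SD, n = 6) and -0.24 ± 0.42 in Leghorn (SD, n = 6). The Leghorn mean was 0.38 above broiler, and the groups overlapped (two-sided exact permutation p = 0.0844, with 0.00216 the smallest possible). Without broiler 1 and Leghorn 2 the means were -0.66 ± 0.23 and -0.09 ± 0.23 (SD, n = 5 each), a difference of 0.57 with no overlap (exact permutation p = 0.00794, the smallest possible). This measure was chosen after the values were seen, and its p is not adjusted over the 5 genes compared this way.

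The same difference was taken for the other chaperones with more than 1 measured probe set. In Leghorn against broiler as labelled it differed by 0.34 for HSP90B1 (exact permutation p = 0.491), 0.02 for PDIA3 (exact permutation p = 0.758) and 0.06 for PDIA4 (exact permutation p = 0.790). Without broiler 1 and Leghorn 2 these became 0.49, 0.05 and -0.01. For DNAJC3 it was 4.005 (exact permutation p = 0.0714) and, without these arrays, 6.26 (exact permutation p = 0.00794). In Fayoumi the PDIA4 difference was 1.65 ± 0.32, against 2.32 ± 0.32 in broiler and 2.37 ± 0.33 in Leghorn, a description.

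**Figure D4:**
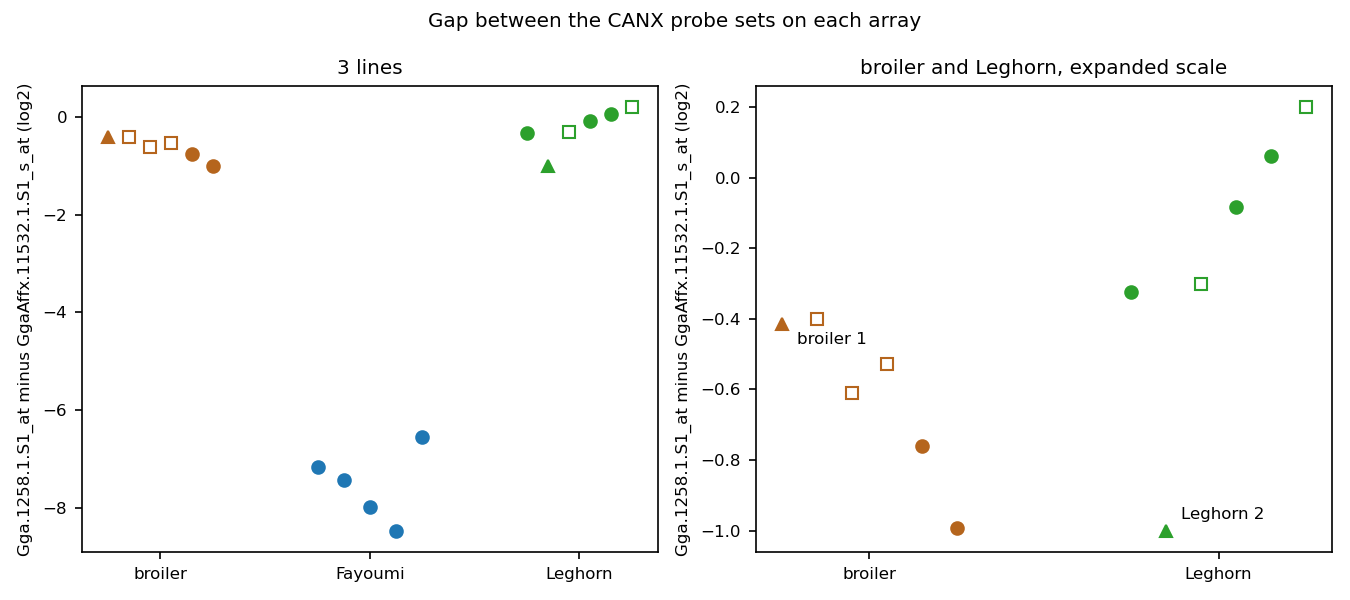
Difference between both CANX probe sets on each array (S1_at minus S1_s_at, log2), in the 3 lines on the left and in broiler and Leghorn on an expanded axis on the right, with squares for the 5 arrays that stood apart and triangles for broiler 1 and Leghorn 2. The Fayoumi arrays lie between -8.48 and -6.55, and Leghorn 2, at -1.002, lies below every broiler array.

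The genes most like CANX S1_at over the 17 arrays were SMPD4 (Pearson r = 0.975, Spearman rho = 0.743), SAT1 (r = 0.962, rho = 0.547), GSKIP (r = 0.962, rho = 0.882), CMTM3 (r = 0.958, rho = 0.565) and PRTFDC1 (r = 0.938, rho = 0.467). The arrays form separate clusters here, Fayoumi and the rest, so these values mainly record that both were lower in Fayoumi, and no p is given. Without Fayoumi 3 and 4, the farthest from the CANX median, r was 0.943 to 0.968. The remaining Fayoumi arrays keep the clusters apart, so this is no check on them. SMPD4, a sphingomyelinase of the ER and nuclear envelope, was at 6.07 ± 0.22 in Fayoumi (SD, n = 5), 8.22 ± 0.13 in broiler (SD, n = 6) and 8.13 ± 0.26 in Leghorn (SD, n = 6). SAT1, which acetylates polyamines, was at 12.10 ± 0.14, 14.11 ± 0.09 and 14.07 ± 0.24 in the same order.

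For HSPA5, which overlapped between the lines, the highest correlations were lower than those for CANX S1_at. CANX S1_at was chosen for its gap, so nothing is read from that. HYOU1 (r = 0.811, rho = 0.664), ATP6V1C2 (r = 0.776, rho = 0.723), LRRC6 (r = 0.754, rho = 0.525), FKBP4 (r = 0.735, rho = 0.593) and CRELD2 (r = 0.718, rho = 0.529) came first. HYOU1 is a large Hsp70 relative that helps HSPA5, ATP6V1C2 is a subunit of the vacuolar proton pump, FKBP4 is a co-chaperone of cytosolic Hsp90 and CRELD2 is an ER protein of the unfolded protein response. LRRC6 lay near background, with line means of 2.53 to 2.65. Without broiler 1 and broiler 2, the arrays farthest from the HSPA5 median, r fell to between 0.311 and 0.633. HYOU1 was at 8.75 on broiler 1 and at 6.96 to 8.09 on the others, and CRELD2 at 9.47 against 6.75 to 8.52. These correlations thus rest in part on those 2 arrays.

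None of the genes beside CANX on the chromosome was called in either Fayoumi comparison. Of all chicken probe sets 0.714% were called against broiler and 0.626% against Leghorn, so nothing is read from that count. In the RefSeq gene order of assembly bGalGal1.mat.broiler.GRCg7b, the 3 nearest genes with a probe set on each side are MGAT4B, LTC4S and MAML1 before and HNRNPH1, DCK2 and RUFY1 after. Each neighbour was read at its probe set with the highest mean alone. LTC4S was not above background on any array and the other 5 were above it on all. MAML1, with line means of 2.56 to 2.84, and RUFY1, with 2.35 to 2.41, lay near background, where a fall could hardly be seen. The 5 Fayoumi minus broiler differences ran from -0.52 to 0.28 and none was called (lowest limma adjusted p = 0.517). Against Leghorn they ran from -0.42 to 0.23 (lowest limma adjusted p = 0.802). Between Leghorn and broiler as labelled no chicken probe set was called at all, so no neighbour of DNAJC3 could be. Without broiler 1 and Leghorn 2 none of its 6 neighbours was called, beside 1.75% of all chicken probe sets. The 4 of them above background on all arrays then differed by 0.01 to 0.99 (lowest limma adjusted p = 0.150).

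The wider folding pathway was followed through 7 lists with 141 genes on the array, of which 136 were above background on at least 5 arrays. Where a gene has several probe sets, the one with the highest mean stands for it. In Fayoumi minus broiler limma called 0 of 141, with 19 at an unadjusted p under 0.05 (13.5%, against 10.2% of all chicken probe sets). In Fayoumi minus Leghorn it called 1, EIF2AK3 (0.709%), with 17 at an unadjusted p under 0.05 (12.1%, against 7.4%). In Leghorn minus broiler it called 0, with 4 at an unadjusted p under 0.05 (2.84%, against 4.88%). These shares are not like for like. Only 21177 of the 37693 chicken probe sets were above background on at least 5 arrays, against 136 of the 141 genes. No excess or shortfall is read from them. Without broiler 1 and Leghorn 2 the calls were 3, 2 and 0 in the same order. The median difference over the 136 genes was -0.06, -0.02 and -0.02, against -0.017, -0.0023 and -0.0017 over 21177 measured chicken probe sets.

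EIF2AK3, the PERK kinase that slows translation when unfolded proteins build up and that DNAJC3 restrains in mammals, was lower in Fayoumi than in Leghorn. Its Fayoumi arrays stood at 4.84, 3.96, 4.15, 4.41 and 4.41. Leghorn ran from 5.07 to 6.21 with a mean of 5.76 ± 0.42 (SD, n = 6), above every Fayoumi array. The difference was -1.41 (SE 0.28, limma adjusted p = 0.0358), and against broiler, at 5.56 ± 0.61, it was -1.21 and not called (limma adjusted p = 0.0751). The call against Leghorn was lost in 12 of 25 alternatives, with adjusted p from 8.85e-05 to 0.125 over all 25. These were the fit with the replicate number as a block and the fits without broiler 3, 5 or 6, without Fayoumi 2, 3, 4 or 5, or without Leghorn 1, 3, 4 or 5.

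Among the helpers of HSPA5 and other ER chaperones, 10 of 19 measured genes were higher and 9 lower in Fayoumi than in broiler, with a median of 0.02 and none called. DNAJB11, a J-domain partner of HSPA5, had the lowest adjusted p, at 8.27 ± 0.35 in Fayoumi and 9.24 ± 0.30 in broiler (difference -0.96, limma adjusted p = 0.112). Against Leghorn, where none was called either, it was SIL1, the nucleotide exchange factor of HSPA5, with a difference of 1.01 (limma adjusted p = 0.406). In the list of disulfide isomerases and oxidases 5 of 16 measured genes were higher and 11 lower than in broiler, with a median of -0.15 and none called. ERO1B, which reoxidises the isomerases, differed by 0.52 from broiler (limma adjusted p = 0.226) and was above background on 4 arrays in all.

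The list of ER-associated degradation had 8 of 22 genes higher and 14 lower in Fayoumi than in broiler, with a median of -0.14 and none called. DERL3, a channel component, was at 10.13 ± 0.18 and 10.98 ± 0.52 (limma adjusted p = 0.286). Against Leghorn the lowest adjusted p was that of HERPUD1, a stress-induced scaffold of that complex, with a difference of -0.68 (limma adjusted p = 0.617). Of the genes of N-glycosylation and of the glucose trimming on which CANX binding depends, 8 of 16 were higher and 8 lower than in broiler, with a median of -0.01. UGGT1, which puts back the glucose that lets calnexin bind again, differed by 0.37 from Leghorn (limma adjusted p = 0.168), and DDOST, of the enzyme that attaches the sugar chain, by -0.35 from broiler (limma adjusted p = 0.508).

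In the translocon and signal peptidase list 6 of 17 genes were higher and 11 lower in Fayoumi than in broiler, with a median of -0.08 and none called. SEC62, which helps bring chains into the ER, was at 11.07 ± 0.07 in Fayoumi and 9.92 ± 1.18 in broiler (limma adjusted p = 0.504). SEC61A1, the channel itself, differed by 0.19 from Leghorn (limma adjusted p = 0.385). Among chaperones of the cytosol and mitochondria 16 of 29 were higher and 13 lower than in broiler, with a median of 0.09. TRAP1, the mitochondrial Hsp90, was at 8.95 ± 0.17 against 9.90 ± 0.57 (limma adjusted p = 0.0966), and DNAJA1, a J-domain partner of cytosolic Hsp70, was at 14.46 ± 0.20 against 13.46 ± 0.64 in Leghorn (limma adjusted p = 0.121).

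**Figure D5:**
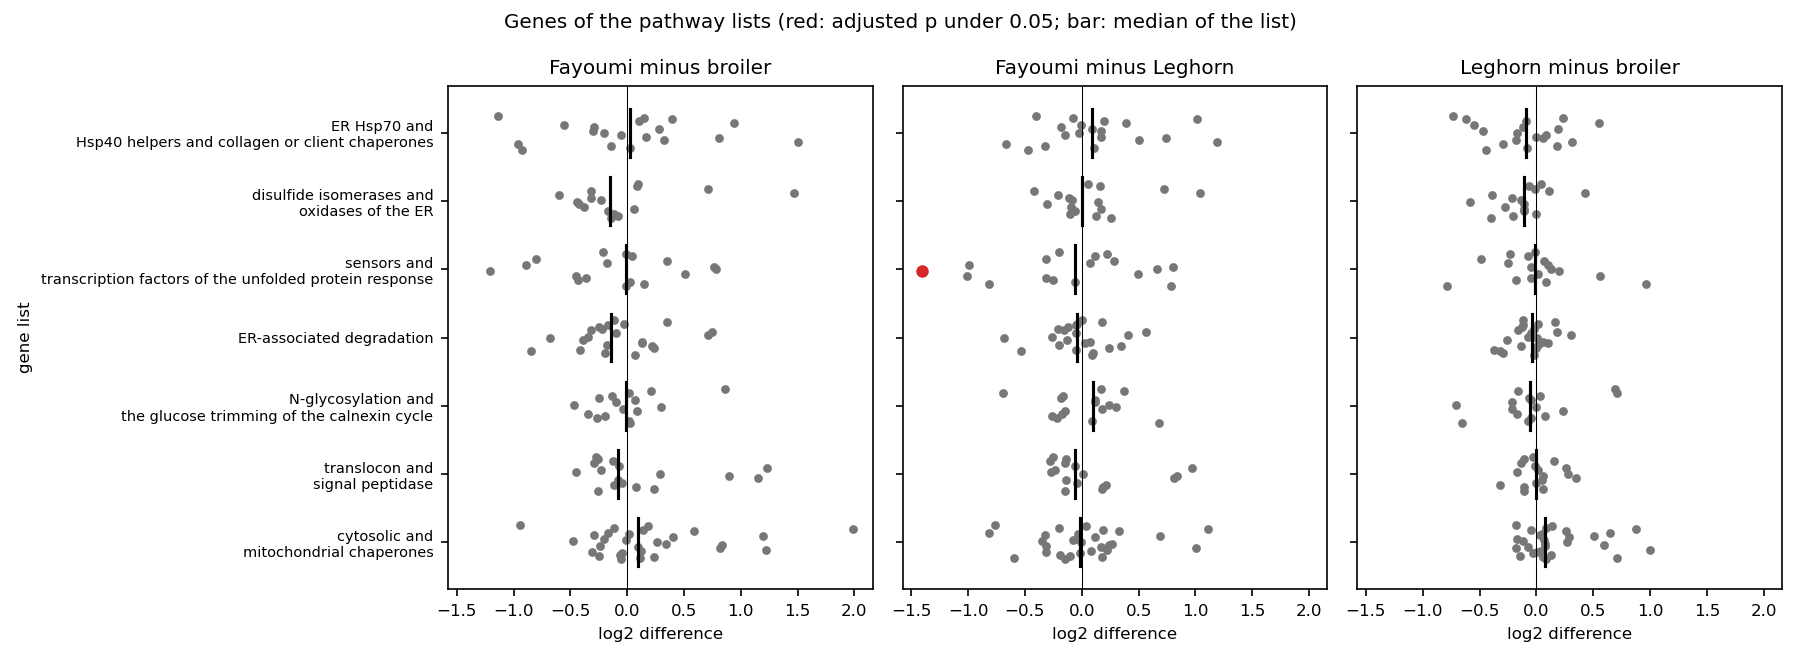
Log2 difference between lines for the measured genes of 7 pathway lists, 1 point a gene, with a black bar at the median of the list and red for an adjusted p under 0.05. The medians lie between -0.15 and 0.10, and EIF2AK3 in Fayoumi minus Leghorn, at -1.41, is the single red point.

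Between Leghorn and broiler the list medians lay between -0.11 and 0.07. In the list of disulfide isomerases and oxidases 3 of 16 measured genes were higher and 13 lower in Leghorn, and among the cytosolic and mitochondrial chaperones 21 of 29 were higher. No single gene of any list is named for this comparison, because many share the lowest adjusted p of 0.852.

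Cells that secrete much protein carry high levels of these chaperones, so markers of other cell types were set beside them. The summed level of 6 plasma and B cell markers was 6.46 to 8.47 in broiler, 6.66 to 6.98 in Fayoumi and 7.55 to 9.31 in Leghorn. POU2AF1, IRF4, PRDM1 and TNFRSF13B were not above background on any Fayoumi array. The same held for PRDM1 and TNFRSF13B in broiler and for POU2AF1 and PRDM1 in Leghorn. Of the 17 arrays, POU2AF1 and TNFRSF13B were above background on 1 each and IRF4 on 3. JCHAIN had means of 6.48 in Fayoumi and 7.06 in broiler, and CD79B 2.50 in both. These 2 were lower in Fayoumi than in Leghorn, with a median of -0.88. They were higher in Leghorn than in broiler, with a median of 0.60. The 6 pancreatic acinar markers summed to 5.65 to 7.16, 6.17 to 8.94 and 5.61 to 5.93, with CPA1 and CPB1 not above background in any line. CTRC and CEL were above background on 1 Fayoumi array each and on no other array. CLPS lay near background, with means of 2.37 in Fayoumi and 2.45 in broiler. The sums in these 2 lines thus mainly follow AMY2A, at 7.40 ± 1.53 in Fayoumi and 5.87 ± 0.99 in broiler. The 8 fibroblast markers summed to 17.30 to 17.66, 17.45 to 17.77 and 17.38 to 17.78, and the 7 skeletal muscle markers to 7.71 to 12.15, 9.75 to 13.61 and 7.30 to 17.65. Of these 7, 6 were above background on at least 5 arrays. All 6 were higher than in broiler in Fayoumi, with a median of 2.73, and in Leghorn, with a median of 1.80. The 4 erythrocyte markers summed to 12.84 to 14.36, 13.46 to 14.33 and 12.51 to 14.35, with HBE not above background. The 8 macrophage markers summed to 15.52 to 15.89, 15.64 to 15.85 and 15.22 to 16.04. Of the 8, 4 were higher and 4 lower in Fayoumi than in broiler, with a median of -0.08. One of them, TIMD4, a receptor of resident macrophages, was called higher in Fayoumi (difference 1.63, SE 0.28, limma adjusted p = 0.0141). Its means were 6.51 ± 0.41 in Fayoumi and 4.88 ± 0.62 in broiler. MARCO went the other way, by -1.19 with no overlap, and was not called (limma adjusted p = 0.484). Apart from TIMD4, no cell type marker was called in any comparison of the 17 arrays. Without broiler 1 and Leghorn 2 limma called ADIPOQ, as given above. It then also called 1 plasma and B cell marker and 1 macrophage marker lower in Fayoumi than in Leghorn. A further 1 macrophage marker was called higher in Leghorn than in broiler. The part of these cell types in the chaperone differences was not tested.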

How the data were processed

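Each array holds adipose RNA of 1 sample. The deposited table gives log2 expression per probe set, normalized by the authors. The submitters' processing notes name R 2.13.2 with RMA and GCRMA but not which of the methods was used. The values run from 2.26 to 16.2, with 37.1% at the lowest value. From these values 37693 chicken probe sets were tested and 842 controls and others left out. Background was set at percentile 95 of 80 probe sets that are blanks or reporters. Symbols came from the platform annotation, and gene numbers were looked up in NCBI RefSeq for current names (26863 of 27178 probe sets with 1 symbol matched). Of the chicken probe sets 27166 carried 1 symbol, 177 several and 10350 none.

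Lines were compared with limma 3.58.1 in R 4.3.3, with 1 model for 17 arrays, the line as its only factor and Benjamini-Hochberg adjustment over all chicken probe sets. The fit was tested on simulated data. The members and lists were chosen with earlier results of these data known. Named genes are every member, per list and comparison the called gene with the smallest adjusted p in each direction or, with none called, the gene with the smallest adjusted p, and the 5 genes most correlated with CANX S1_at and with HSPA5. Alternatives changed the normalization, the filter on dim probe sets, array weights, the lines fitted, the replicate block and the arrays kept. The probe-level files were not used here.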

Additional observations from a re-analysis of the deposited data

Results flagged for a closer look

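Of the 33 combinations of a measured chaperone probe set and a line, 8 held an array whose distance to its nearest neighbour was large against the range of its line by Dixon's test. Chance gives about 1 in 20, or 1.65 here. The combinations share the same 17 arrays and are not independent, and Leghorn 6 recurs among the 8. No excess is therefore read from these numbers. CANX S1_s_at was 9.79 on Leghorn 6, with the nearest Leghorn array at 10.82. HSPA5 was 13.59 on Leghorn 5, with the nearest at 14.12. PDIA3 S1_s_at was 10.63 on broiler 6, with the nearest at 11.66, and S1_a_at was 11.27 on Fayoumi 5, with the nearest at 11.06. PDIA4 S1_s_at was 9.41 on Leghorn 6, with the nearest at 10.95. DNAJC3 S1_s_at was 10.41 on Leghorn 6, with the nearest at 10.85. DNAJC3 S1_at was 2.58 on broiler 1, with the nearest broiler array at 8.35, and 9.42 on Leghorn 2, with the nearest Leghorn array at 3.04.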

How the results depend on the processing

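Over 25 alternatives, 33 differences of the 11 measured chaperone probe sets and 6 of EIF2AK3 and STT3B gave 975 values. The sign turned in 60 of them, none for a called difference. The called differences include both of CANX S1_at, on which the choice rests, so nothing is read from their signs. Of these, 15 came without the 5 arrays that stood apart, 10 with array weights, 31 when 1 array was left out and 3 without broiler 1 and Leghorn 2, with turned values between -0.49 and 0.17 on the log2 scale. In Fayoumi minus broiler 1 chaperone probe set was called in all 25. It was CANX S1_at, which is also counted in each Fayoumi minus Leghorn count, and nothing is read from its calls. In Fayoumi minus Leghorn the count was 3 with array weights, 2 with the filter on dim probe sets, 2 without broiler 1 and Leghorn 2, and 1 to 2 when 1 array was left out (2 without broiler 1 or without Leghorn 2). In Leghorn minus broiler it was 1 without broiler 1 and Leghorn 2. Genes of the pathway lists called in Fayoumi minus broiler numbered 9 with array weights, 3 with the filter, 1 with quantile normalization, 1 with the 2 lines alone, 3 without broiler 1 and Leghorn 2, 2 without the 5 arrays that stood apart and 0 to 3 when 1 array was left out (3 without broiler 1, 1 without Leghorn 6). In Fayoumi minus Leghorn they numbered 13 with array weights, 2 with the filter, 2 without broiler 1 and Leghorn 2, 5 without the 5 arrays and 0 to 2 when 1 array was left out (2 without broiler 2 or without Leghorn 2). The difference between the CANX probe sets, Leghorn minus broiler, was 0.57 without broiler 1 and Leghorn 2 and 0.29 to 0.53 when 1 array was left out, with exact permutation p from 0.00216 (without Leghorn 2) to 0.286 over these added alternatives, chosen after seeing the data. The cause of these shifts was not tested.

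With the replicate number as a block, 0 genes of the lists were called in Fayoumi minus Leghorn. The 16 same-numbered pairs had correlations from -0.777 to 0.575, with 12 below 0.1, so the numbers were not taken to pair the samples.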

Other observations

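Some genes of the folding pathway had a further probe set that differed between Leghorn and broiler without broiler 1 and Leghorn 2. They were chosen after their values were seen. Of all chicken probe sets 1.75% were called in this comparison. Of the 141 list genes, each at its probe set with the highest mean, 0 were called. No excess is read from the calls that follow. UBXN4, which anchors the segregase VCP at the ER for degradation, was 3.48 higher in Leghorn at 1 of its probe sets ending in S1_at (limma adjusted p = 3.72e-06), and as labelled the difference was 2.54 (limma adjusted p = 0.835). It stood at 6.87 on broiler 1 and at 2.55 to 4.23 on the other broiler arrays, and at 4.72 on Leghorn 2 against 6.79 to 6.93 in the rest of Leghorn. The Fayoumi arrays were at 6.95, 7.21, 6.69, 6.78 and 6.70, close to Leghorn. Its 2 probe sets with the highest means differed by 0.15 and -0.16 and were not called (limma adjusted p = 0.921 and 1). UGGT1, whose probe sets all end in S1_at, was 1.05 higher at the one with the middle mean (limma adjusted p = 0.00355) and 0.69 as labelled (limma adjusted p = 0.852). Its brightest probe set differed by -0.24 and was not called (limma adjusted p = 0.476). SEC61A2, a channel subunit, fell by 1.24 at S1_a_at (limma adjusted p = 0.00629), and as labelled the difference was -0.93 (limma adjusted p = 0.835). Its brightest probe set, S1_at, differed by -0.44 and was not called (limma adjusted p = 0.631). The same held for its S1_s_at, also at -0.44 (limma adjusted p = 0.606).

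STT3B, a catalytic subunit of the enzyme that attaches sugar chains, differed by -0.48 between Fayoumi and broiler at an S1_at probe set other than its highest (limma adjusted p = 0.0386). That call was lost in 12 of 25 alternatives, with adjusted p from 0.0193 to 0.375. Among the 6 neighbours of HSP90B1, GLT8D2 was 1.13 higher in Fayoumi than in Leghorn (limma adjusted p = 0.0274), where 0.626% of all chicken probe sets were called. TDG differed by -0.44 between Leghorn and broiler without broiler 1 and Leghorn 2 (limma adjusted p = 0.0399), beside 1.75% of all. No other neighbour of a chaperone was called in these comparisons, and nothing is read from these calls.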
